A study of Arabidopsis thaliana with 4 samples.

Results

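The transcripts described here were those whose signal was at least 2-fold lower in ein3 eil1 seedlings than in wild type in both pairs of arrays of the study. They were 160 of the 14047 probe sets tested (1.14%), and 82 of them named exactly 1 gene. RNA came from whole Arabidopsis thaliana seedlings, wild type (Wt, Col-o) or ein3-1eil1-1, a mutant of AT3G20770 (EIN3) and AT2G27050 (EIL1) called ein3 eil1 from here on. All seedlings were grown on MS medium and kept for 4 days in darkness after a cold treatment and a short light exposure. The labels add that the mutant seedlings accumulated more protochlorophyllide than wild type, and they name no other treatment or allele. Each genotype was hybridised to 2 Affymetrix ATH1 arrays, and in each genotype the title of 1 array carries the words biological rep. Pair 1 was formed by the arrays without these words and pair 2 by those with them.

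EIN3 and EIL1 are transcription factors at the end of the ethylene signalling chain. Without ethylene their proteins are degraded, and when the receptors bind the hormone the membrane protein EIN2 lets them accumulate and switch on response genes. In dark-grown seedlings the pathway shapes hypocotyl and root growth and the apical hook, and it restrains protochlorophyllide, the chlorophyll precursor that becomes harmful in sudden light. Seedlings without both factors are therefore used to ask which transcripts depend on this output.

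A probe set was kept if it reached the 40th percentile of its array on at least 2 of the 4 arrays, and it was chosen if the difference, mutant minus wild type, was at or below -1 on the log2 scale in both pairs. The differences between genotypes thus selected these transcripts, so they are given as a description with no test. Values are normalised log2(signal + 3), which is not corrected for transcript length, so levels are not compared between genes. The 2 arrays per genotype limit the precision of every value. The filter can admit a transcript through its wild-type arrays alone, and 48 of the 160 entered in that way, with both mutant signals below the 40th percentile. A further 252 probe sets were at or below -1 in both pairs but too dim to be tested, and they are not described.

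The arrays were not on a common scale as deposited, with a median signal between 49.2 and 52.1 on 3 of them and 84.8 on the mutant array of pair 2, so they were quantile normalised. The pairs also differed in the added poly-A control RNAs. Their mean level was 7.86 and 7.95 on the wild-type and mutant arrays of pair 1, and 6.37 and 6.40 on those of pair 2. Whole-seedling RNA carried the root marker PYK10 at 13.12 and 13.35 in wild type against 13.09 and 13.35 in the mutant, and the shoot plastid marker RCA at 12.09, 12.99, 11.66 and 12.91 in the same order. In whole seedlings, fewer cells of a type and less RNA per cell cannot be told apart.

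The 160 transcripts covered a wide range of sizes. In pair 1 the differences ran from -6.12 to -1.0005 with a median of -1.54, and in pair 2 from -7.39 to -1.001 with a median of -1.85. Over all tested probe sets the medians were 0.01 in both pairs. At or below -1.5 in both pairs there were 70 (0.498%). With both pairs at or below -2 there were 39 transcripts (0.278% of those tested), and with both at or below -3 there were 15 (0.107%), 5 of them at or below -4 in both (0.0356%). In the other direction, 125 probe sets (0.89%) were at least 2-fold higher in the mutant in both pairs. The background for a single pair was 438 probe sets (3.12%) in pair 1 and 469 (3.34%) in pair 2. The differences nearer 0 in the 3 transcripts just inside the threshold were -1.0005 and -1.001 in unnamed probe sets and -1.01 in AT5G60760. Just outside it lay AT1G16260 (-0.996), AT4G19380 (-0.995) and XTH18 (-0.993), so no gap separates the chosen transcripts from the next ones.

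The word lost suited a minority of them. Both mutant signals were under the 40th percentile of their arrays in 48 (30.0%), beside 1.12% of all tested probe sets, a gap that the rule favours. Of the 2 mutant signals 1 lay below it in 21 transcripts, and both remained at or above it in 91. In 71 transcripts the mutant signal was at or above the array median on both arrays. The wild-type mean ran from 5.25 to 12.36 with a median of 7.83, against 7.15 over all tested probe sets, and the mutant mean from 2.14 to 11.04 with a median of 5.86.

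**Figure D1:**
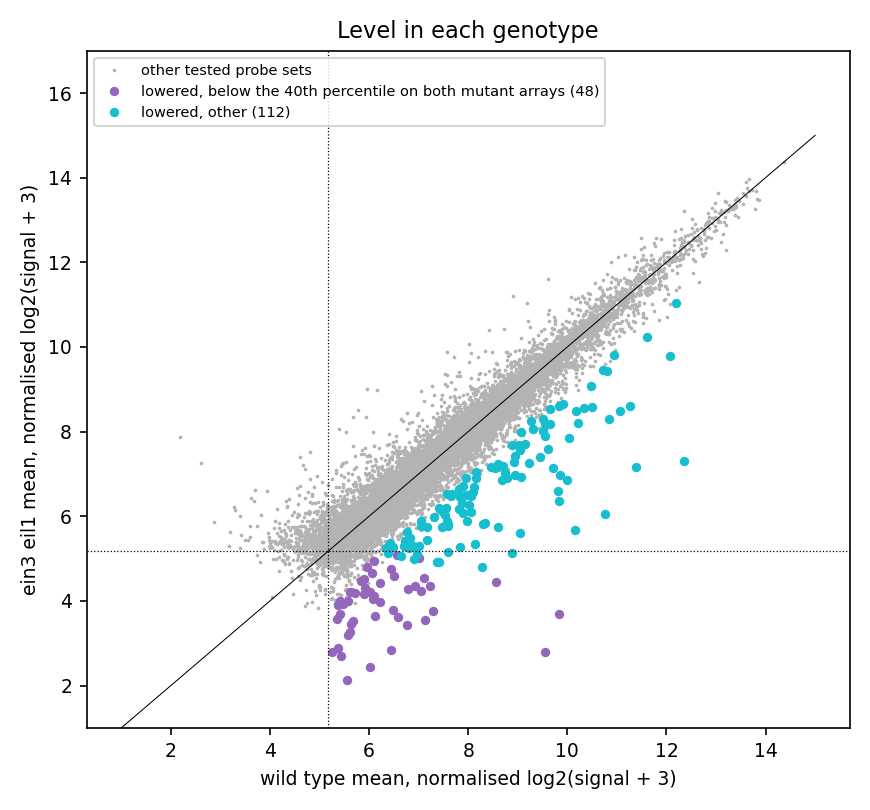
Mean normalised log2 signal in wild type (x axis) and in ein3 eil1 (y axis) for every tested probe set, with the solid line marking equal levels and the dotted lines the 40th percentile of an array. The 48 purple points were below that percentile on both mutant arrays, and the other 112 lowered transcripts have wild-type means from 6.34 to 12.36.

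EIN3 itself was among them. Its signal was 9.73 and 10.24 on the wild-type arrays and 6.51 and 7.22 on the mutant arrays, pair 1 first. Both mutant values lay below both wild-type values, and both stayed above the 40th percentile. As deposited, the signals were 766 and 992 against 76.7 and 221. The genotype means were 9.99 ± 0.36 and 6.86 ± 0.50 (SD, n = 2 each). The differences were -3.22 in pair 1 and -3.02 in pair 2, that is 8.70-fold lower on average. The place of the probe set relative to the lesion in the allele was not compared, and EIL1 is not analysed here.

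**Figure D2:**
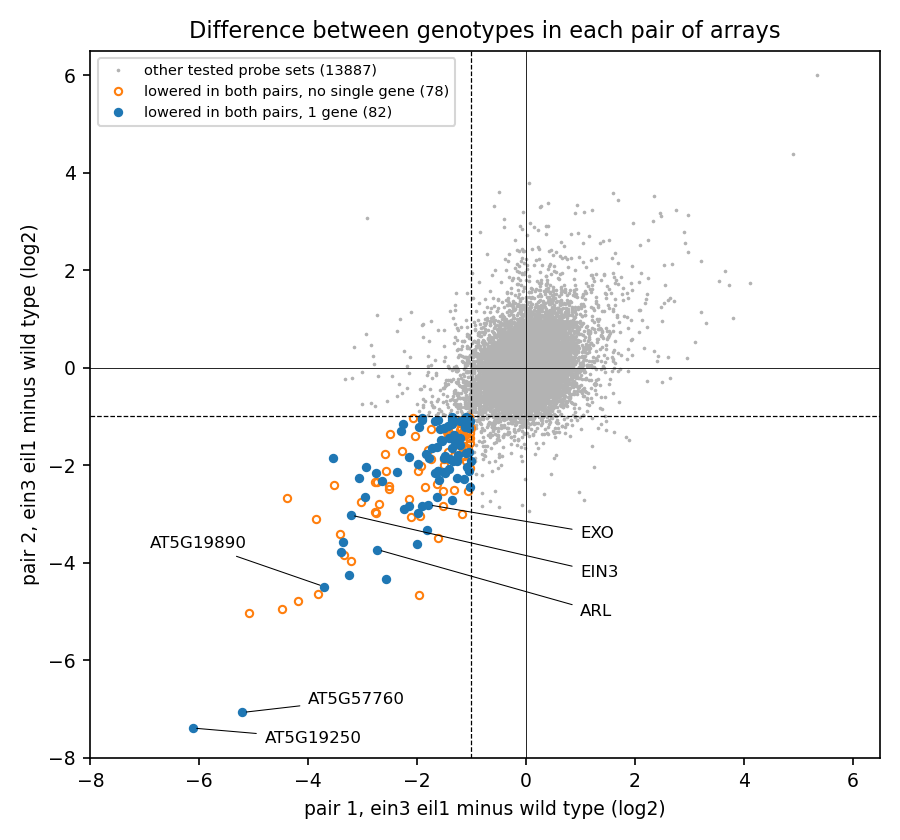
Difference between genotypes in pair 1 (x axis) and pair 2 (y axis), mutant minus wild type in log2 units, for all tested probe sets; the dashed lines mark -1. AT5G19250 and AT5G57760 stand apart at the lower left. EIN3 lies near -3 in both pairs, and ARL lies at -2.73 in pair 1 and -3.73 in pair 2.

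Of the 82 genes, 18 had a name beyond their locus, and 6 of these act in hormone response and growth. ARL (ARGOS-LIKE) promotes organ growth through cell expansion. Its signal was 9.43 and 10.21 in wild type against 6.70 and 6.47 in the mutant, with differences of -2.73 and -3.73, and the groups were well apart. EXO (EXORDIUM), a secreted protein of growth that responds to brassinosteroid, was lower as well. It measured 11.9998 and 12.16 in wild type against 10.21 and 9.35 in the mutant, with differences of -1.79 and -2.81. The mutant arrays differed more from each other than the wild-type arrays did, but both stayed above the 40th percentile.

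A pair of hormone-conjugating enzymes was lower as well, together with an auxin-response repressor. IAGLU encodes the glucosyltransferase that joins glucose to the auxin indole-3-acetic acid. Its signal was 8.26 and 8.41 in wild type against 6.27 and 5.42 in the mutant, with differences of -1.99 and -2.99. UGT76C2, a glucosyltransferase of cytokinins, measured 7.38 and 8.24 in wild type against 5.90 and 6.42 in the mutant, with differences of -1.48 and -1.82. The lower wild-type array of UGT76C2 lay 0.96 above the higher mutant array, less than the 2-fold cut. IAA20, one of the Aux/IAA repressors of auxin response, measured 7.67 and 8.43 in wild type against 6.07 and 6.13 in the mutant, with differences of -1.60 and -2.30. The mutant values of IAA20 were nearly equal, and the wild-type values were spread by more than 0.5. Over the 6 genes, EIN3 included, the median of the mean difference was -2.39, beside 0.01 over all tested probe sets, a gap that the selection itself sets. None of the 6 had both mutant signals below the 40th percentile.

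Small secreted defence peptides formed a second group, with 2 genes. PDF2.5, a plant defensin, measured 6.07 and 6.18 in wild type against 3.93 and 3.35 in the mutant, with differences of -2.14 and -2.83. Its wild-type values were tight, and its mutant values lay below the 40th percentile. THI2.2, a thionin, which is an antimicrobial peptide rich in cysteine, measured 8.42 and 8.20 in wild type against 5.47 and 6.16 in the mutant, with differences of -2.94 and -2.04. THI2.2 stayed above the 40th percentile on both mutant arrays.

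Among genes of carbohydrate, lipid and energy metabolism, 5 were lower. GH9B12, of the glycosyl hydrolase family that holds the endoglucanases of the cell wall, measured 5.89 and 6.33 in wild type against 3.73 and 4.50 in the mutant, with differences of -2.15 and -1.82. SUFE2, an activator of the cysteine desulfurase that supplies sulfur for iron-sulfur clusters, measured 8.96 and 9.31 in wild type against 7.55 and 7.87 in the mutant, with differences of -1.41 and -1.44. NDB3, an alternative NAD(P)H dehydrogenase, measured 5.53 and 5.18 in wild type against 3.24 and 3.88 in the mutant, with differences of -2.29 and -1.29. NDB3 was below the array median throughout: both mutant values lay below the 40th percentile and its second wild-type value lay exactly at it. It was kept because the rule admits a tie, and without ties 159 transcripts of 14040 tested met the rule.

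The other metabolic genes were an enzyme of sucrose synthesis and an oil-body protein. ATSPS4F, a sucrose-phosphate synthase, measured 5.95 and 7.44 in wild type against 4.75 and 5.85 in the mutant, with differences of -1.20 and -1.59. Wild type in pair 1 and the mutant in pair 2 differed by only 0.10, so the genotypes of ATSPS4F were barely apart across pairs. OLEO3, an oleosin that coats seed oil bodies, measured 9.93 and 9.90 in wild type against 8.57 and 8.75 in the mutant, with differences of -1.36 and -1.15. Of the 5 markers of seed reserves and their use, only ICL, the isocitrate lyase of fat mobilisation, could be tested, at 11.51 and 9.97 in wild type against 11.07 and 10.38 in the mutant. The groups overlapped in ICL, whose differences were -0.44 and 0.41.

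Protein modification and turnover gave 3 genes. UBC29, a ubiquitin-conjugating enzyme, measured 9.29 and 9.79 in wild type against 7.89 and 7.91 in the mutant, with differences of -1.39 and -1.88. PCME, an isoprenylcysteine methylesterase that acts on prenylated proteins, measured 9.01 and 9.04 in wild type against 7.70 and 7.66 in the mutant, with differences of -1.32 and -1.38. In PCME the arrays of a genotype agreed within 0.1. PDF1B, a peptide deformylase that trims new proteins of the organelles, measured 7.25 and 7.59 in wild type against 5.89 and 6.52 in the mutant, with differences of -1.36 and -1.07.

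A gene of genome maintenance and a gene of the cytoskeleton complete the 18. RAD51B, a gene of recombinational DNA repair, measured 5.44 and 5.70 in wild type against 3.54 and 2.87 in the mutant, with differences of -1.90 and -2.83. It was below the array median in wild type and below the 40th percentile in the mutant. PLIM2b, an actin-binding LIM-domain protein, measured 8.49 and 8.88 in wild type against 7.01 and 6.72 in the mutant, with differences of -1.48 and -2.16. In all 18 genes both mutant values lay below both wild-type values, an order that the rule nearly fixes and that 15.1% of all tested probe sets showed. In 15 of the 18 all 4 differences between single mutant and wild-type arrays were at or below -1. The exceptions were UGT76C2, ATSPS4F and PDF1B. Among the 160 lowered transcripts as a whole, 110 had all 4 differences at or below -1. Any tested probe set with such differences meets the rule, so these 110 are also the full 0.783% of tested probe sets.

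**Figure D3:**
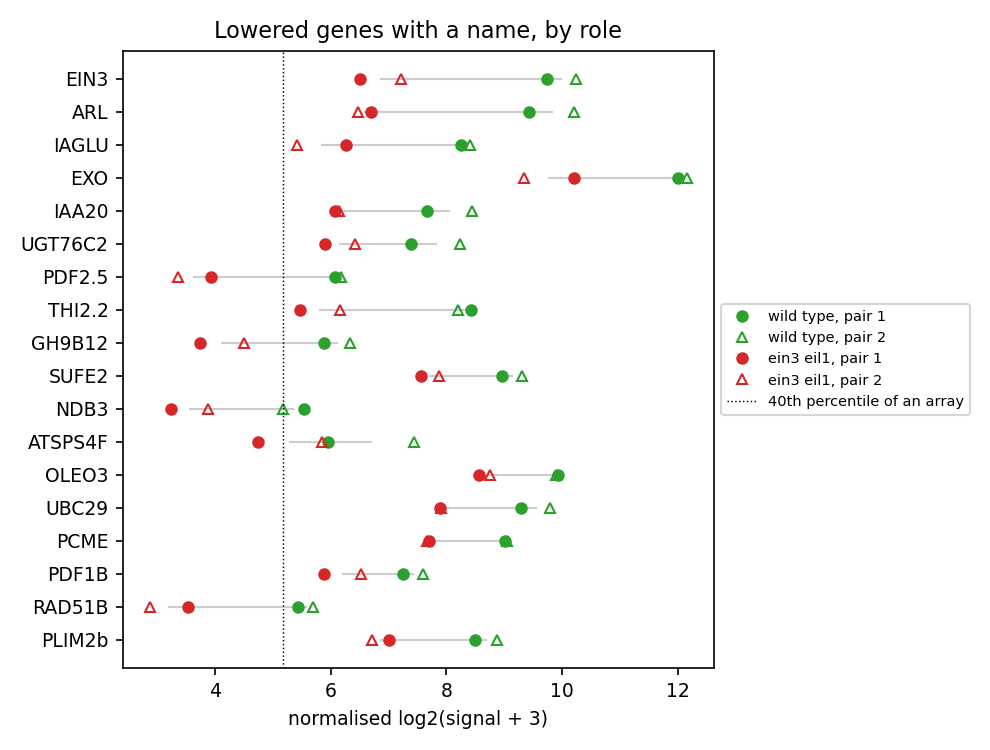
Normalised log2 signal on each array for the 18 lowered genes with a name, ordered by role from hormone and growth (top) to genome and cytoskeleton (bottom); green marks wild type, red ein3 eil1, circles pair 1 and open triangles pair 2, and grey lines join the genotype means. The colours are well apart in most rows and meet in ATSPS4F, and PDF2.5, GH9B12, NDB3 and RAD51B drop below the dotted 40th percentile on both mutant arrays.

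For 7 of the lowered genes, other genes with the same family name were tested. The lowered genes were selected for their difference and these relatives were not. The families were picked after the values were seen, and the test of each relative is limma's over all tested probe sets, in which 0.214% were called lower and 0.0783% higher. Beside GH9B12, with a mean difference of -1.99, 7 other GH9 genes were tested, and their mean differences ran from -0.42 to 0.18. Beside PLIM2b (-1.82) the LIM genes WLIM2b, WLIM2a and WLIM1 had -0.13, 0.23 and 0.36. Beside NDB3 (-1.79), NDC1, NDB1 and NDB2 had -0.22, 0.24 and 0.34. Beside PDF2.5 (-2.49), the other tested defensin, PDF1.4, had 0.07, with differences of 0.70 and -0.56 in the pairs. PDF1A, the other peptide deformylase, had -0.70, nearer to the -1.21 of PDF1B than any of these relatives came to its lowered gene.

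The glucosyltransferase and Aux/IAA families spread in both directions. Beside UGT76C2 (-1.65), the 26 other tested genes with a UGT symbol ran from -0.87 to 1.55 with a median of 0.38. IAGLU, a lowered glucosyltransferase with a mean difference of -2.49, has no UGT symbol and is not counted there. Glucosyltransferases known by locus alone are not counted either. UGT76C1, next to UGT76C2 on the chromosome, had differences of 0.36 and -0.24. Beside IAA20 (-1.95), IAA30 had a mean difference of -0.38 and IAA18 of -0.13, while IAA29 was higher in the mutant by 2.32 (limma adjusted p = 0.022). IAA31 had the same direction as IAA20, with 3.92 and 4.27 in wild type against 2.36 and 1.93 in the mutant, but it was too dim to be tested. Of the 44 relatives tested in 7 families, IAA29 passed the limma threshold upward, 0 passed it downward, and 6 (13.6%) had an unadjusted p under 0.05, beside 6.19% of all tested probe sets. Of these 6, 5 were higher in the mutant and 1, PDF1A, was lower. Among the 5, UGT84A3 passed the filter through its mutant arrays alone, with 4.61 and 4.58 in wild type against 6.40 and 5.64. The filter thus favours higher relatives in this count. The difference between a lowered gene and its relatives was not tested.

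**Figure D4:**
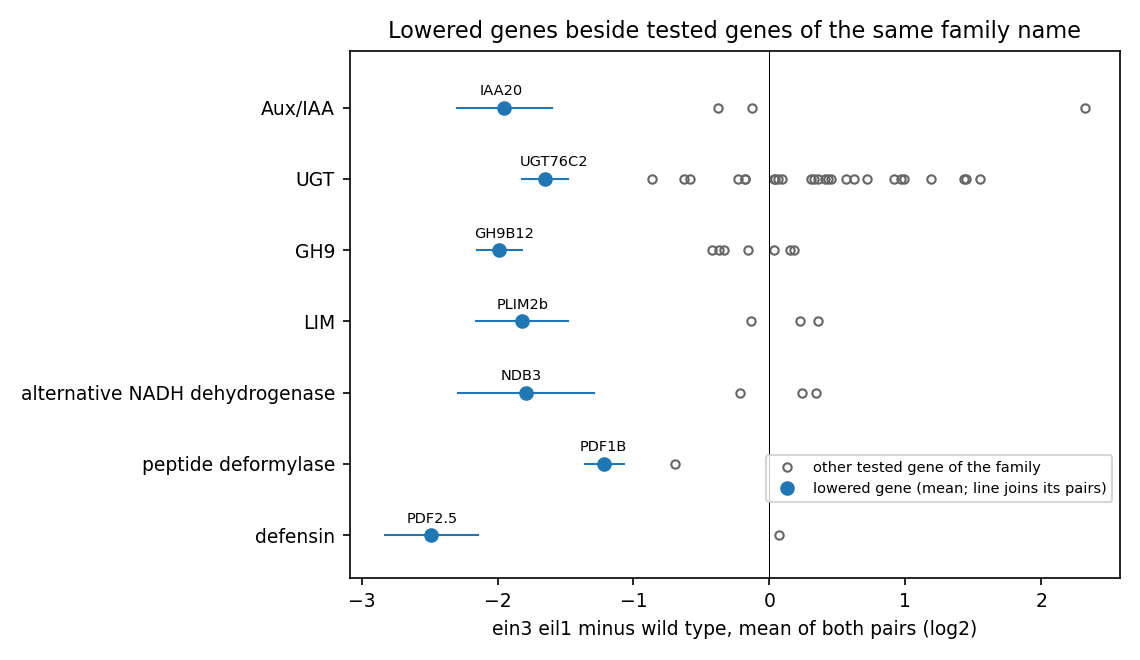
Mean difference, mutant minus wild type in log2 units, of 7 lowered genes (blue, with a line joining the values of pair 1 and pair 2) and of the other tested genes with the same family name (open circles). The lowered gene lies left of its tested relatives in all 7 rows, as its selection favours, and the relatives scatter around 0 with IAA29 at 2.32 and UGT72B3 at 1.55 on the right.

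The largest differences belonged to genes known here by locus alone, for which the annotation used gives no role. AT5G19250 measured 9.59 and 9.52 in wild type against 3.46 and 2.14 in the mutant, with differences of -6.12 and -7.39. Its deposited signals were 698 and 608 in wild type against 7.6 and 1.6 in the mutant, and the 1.6 of pair 2 is near the floor of the array. AT5G57760 measured 8.92 and 10.73 in wild type against 3.71 and 3.66 in the mutant, with differences of -5.21 and -7.07. AT5G19890 measured 8.60 and 8.50 in wild type against 4.89 and 4.02 in the mutant, with differences of -3.71 and -4.49. All 3 genes were under the 40th percentile in the mutant, so the size of the difference leans on the pseudocount: that of AT5G19250 averaged -6.76, and -5.23 with a pseudocount of 16 or -7.34 with a pseudocount of 1.

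Other loci with large differences kept both mutant signals above the 40th percentile, AT2G34700 only just so. AT4G11610 measured 9.64 and 10.02 in wild type against 6.28 and 6.44 in the mutant, with differences of -3.35 and -3.58. AT4G22490 measured 11.26 and 11.29 in wild type against 8.19 and 9.03 in the mutant, with differences of -3.07 and -2.26. AT2G34700 measured 8.45 and 7.84 in wild type against 5.49 and 5.18 in the mutant, with differences of -2.96 and -2.65. In these 3 loci the groups were separated by far more than the arrays of a genotype differed.

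In AT2G34020 and AT5G44580 the wild-type arrays disagreed more. AT2G34020 measured 8.21 and 9.55 in wild type against 4.95 and 5.30 in the mutant, with differences of -3.26 and -4.25. AT5G44580 measured 8.30 and 9.80 in wild type against 5.73 and 5.47 in the mutant, with differences of -2.57 and -4.33. In both loci wild type was higher on the array of pair 2, and that pair had the larger difference. AT5G50335 measured 7.25 and 7.49 in wild type against 4.51 and 5.32 in the mutant, with differences of -2.75 and -2.17.

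In another 3 loci with large differences both mutant signals lay below the 40th percentile. AT4G26390 measured 5.87 and 7.01 in wild type against 2.47 and 3.22 in the mutant, with differences of -3.39 and -3.78. AT5G11080 measured 5.20 and 5.52 in wild type against 2.56 and 3.20 in the mutant, with differences of -2.64 and -2.32. AT5G18470 measured 6.53 and 7.33 in wild type against 4.29 and 4.43 in the mutant, with differences of -2.23 and -2.91. The lowest wild-type value was 5.20 in AT5G11080, just above the 40th percentile.

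**Figure D5:**
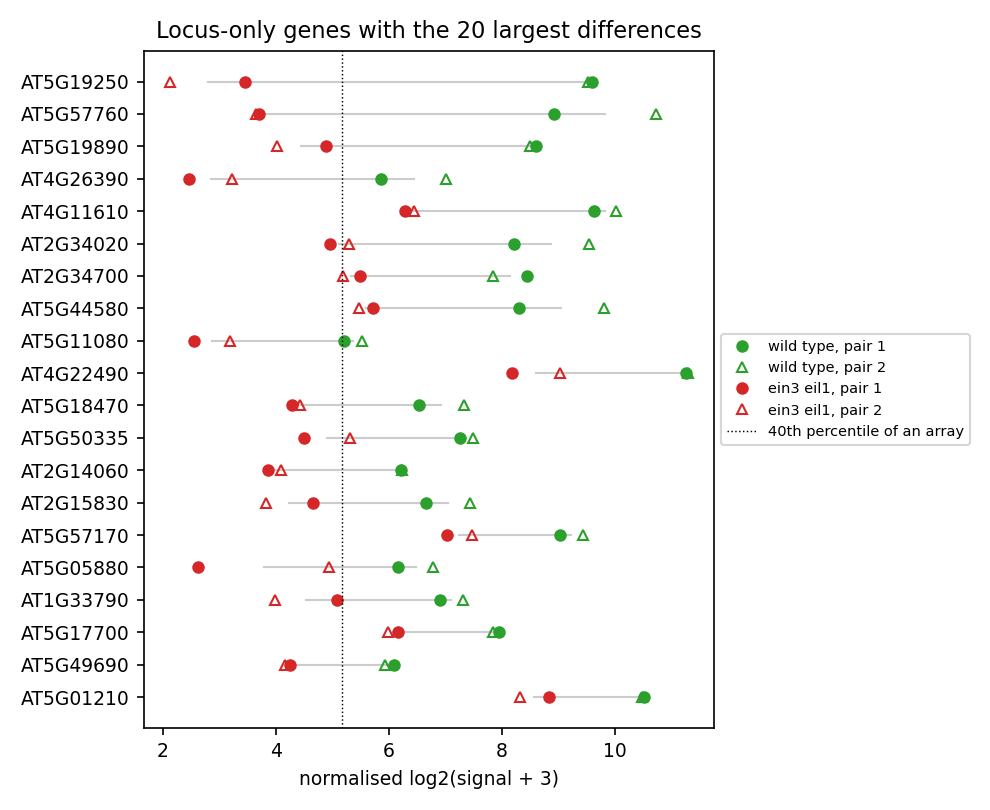
Normalised log2 signal on each array for the 20 locus-only genes with the largest difference in the pair nearer 0, with symbols as in the plot of named genes. AT5G19250 and AT5G57760 span the widest gap between genotypes, and the red symbols lie left of the green ones in every row.

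The 64 locus-only genes had a median mean difference of -1.65, from -6.76 to -1.05. By the pair nearer 0, 14 were at or below -2, 12 between -2 and -1.5 and 38 above -1.5, and 22 had both mutant signals below the 40th percentile. Of the 12, AT5G05880, AT1G33790 and AT4G23510 had pairs that differed by more than 1. The pairs agreed within 0.1 in AT5G57170, AT5G17700, AT5G49690, AT1G44830 and AT3G61490. AT5G17700 measured 7.95 and 7.84 in wild type against 6.17 and 5.99 in the mutant, with differences of -1.79 and -1.85. AT1G67910 had 12.27 and 12.10 in wild type against 11.07 and 11.01 in the mutant. AT2G47780 measured 11.67 and 11.55 in wild type against 10.17 and 10.32 in the mutant. Both loci stayed above the array median in the mutant, with differences of -1.21 and -1.09 in AT1G67910 and of -1.4965 and -1.23 in AT2G47780.

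The 78 remaining transcripts could not be assigned to 1 gene: 76 were not listed in the platform annotation and 2 named several genes. They resembled the named ones in size, with a median mean difference of -1.73 in the 76. Of the pair of unlisted transcripts with the largest differences, the first measured 12.36 and 12.35 in wild type against 7.28 and 7.33 in the mutant, and the other measured 10.66 and 10.87 against 6.18 and 5.92. Of the 76, 21 had both mutant signals below the 40th percentile. Named transcripts thus describe about the same share of the 160 (51.2%) as of all tested probe sets (53.7%). Of the 160 probe sets 5 were of the kind that can read several transcripts, and none of these 5 named 1 gene.

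All 82 genes could be placed in the gene order of the RefSeq annotation, and no adjacent protein-coding genes were both among them. Of the genes next to them, 45 had a tested probe set with 1 gene, and 0 of these 45 met the rule. The share over all tested probe sets with 1 gene was 1.09%, and 45 genes are too few to show a difference from it. Both pairs were below 0 in 14 of the 45 (31.1%), beside 28.3% of all tested probe sets with 1 gene, and the median of the mean differences was -0.04. Both pairs were above 0 in 11 of the 45, and the signs were opposite in 20. Among the 14, AT1G67800 beside SUFE2 had differences of -1.28 and -0.52, and AT4G15545 beside IAGLU of -0.54 and -1.04. Among the 11, AT2G16750 beside UBC29 had differences of 1.26 and 1.18, and AT5G11070 beside AT5G11080 of 1.38 and 1.80.

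There were 3 instances of lowered genes separated by a single gene. AT4G26370 and AT4G26390 flank AT4G26380, which measured 3.65 and 3.60 in wild type against 2.14 and 2.38 in the mutant and was too dim to be tested. Its differences of -1.51 and -1.22 had the direction of both neighbours. AT2G29290 and AT2G29310 flank AT2G29300, also too dim, with differences of -0.21 and -0.53. UGT76C2 and AT5G05880 flank UGT76C1, which was tested and had no common direction in the pairs. By chromosome, the share of tested genes that were lowered ran from 0.517% on chromosome 1 (10 genes) to 1.73% on chromosome 2 (19 genes).

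Few other genes of the ethylene pathway could be read. Of 35 genes of ethylene signalling, response and synthesis, 5 had a probe set with 1 gene and 4 were tested. EIN3 and ARL were among the lowered transcripts, and RTE1 and PORB lay just short of the rule, RTE1 in both pairs and PORB in pair 1. RTE1, a regulator of the ethylene receptor ETR1, measured 7.63 and 7.38 in wild type against 6.66 and 6.39 in the mutant, with differences of -0.97 and -0.98. PORB, a light-dependent protochlorophyllide oxidoreductase, measured 12.21 and 13.10 in wild type against 11.25 and 11.80 in the mutant, with differences of -0.96 and -1.29. Neither passed limma's test over all probe sets (adjusted p = 0.413 in both), though both had an unadjusted p of 0.0081, and both passed with the pair as a block (adjusted p = 0.031 for RTE1 and 0.0028 for PORB). With 1 array left out, limma takes the lone array of a genotype to vary like the other genotype. PORB then passed without the wild-type array of pair 1 (difference -1.57, adjusted p = 0.0017) and without the mutant array of pair 2 (-1.41, 0.0030). It did not pass without the wild-type array of pair 2 (-0.69, adjusted p = 0.688) or the mutant array of pair 1 (-0.85, 0.375).

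Markers of organs, cell types and handling were not among the lowered transcripts. Of 27 markers 10 had a probe set with 1 gene, 6 were tested, and limma called 0 lower and 1 higher, with 1 of the 6 at an unadjusted p under 0.05. The called gene was COR15A, a cold-induced chloroplast protein on the list for heat and handling. It measured 2.74 and 2.47 in wild type against 7.64 and 6.86 in the mutant (difference 4.65, SE 0.55, limma adjusted p = 0.014). Both wild-type signals were below the 40th percentile, so COR15A passed the filter through its mutant arrays alone, where it is high. The p value does not allow for that choice. COR15A missed limma's threshold with no filter (adjusted p = 0.069) and with a stricter filter (0.147). Without the mutant array of pair 1 its difference was 4.26 (adjusted p = 0.297, with the lone mutant array taken to vary like wild type), and without any other single array it passed. ZAT10, of the same list, had differences of 0.36 and 0.27, and the stomatal lineage gene SPCH of -1.26 and 0.78. No tested marker of the epidermis, the vasculature, the endodermis or root hairs was at hand, so their part in the lowered transcripts was not tested.

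The pairs did not weigh equally in the set. The difference was the larger in pair 2 in 101 of the 160 transcripts and in pair 1 in 59. Wild type was higher on the array of pair 2 than on that of pair 1 in 115 of the 160 (71.9%), against 48.4% of all tested probe sets. The wild-type arrays lay more than 1 apart in 20 of the 160, beside 9.54% of all tested probe sets. The mutant arrays lay more than 1 apart in 24, and 1 unnamed transcript had overlapping groups. For the spread of the mutant arrays and for the pair with the larger difference, the share over all tested probe sets was not computed. Those counts are therefore not shown to be particular to this set. The pairs also differ in the poly-A controls given above, and the part of that difference in these values was not tested.

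How many transcripts met the rule depended on the scale and on single arrays. On the scale as deposited, 88 transcripts met it, and all 88 were among the 160. The median difference over every tested probe set was 0.79 in pair 2 on that scale, and 0.01 in pair 1. All 160 kept a negative difference in both pairs there. With each array of a pair set against both arrays of the other genotype, 110 met the rule. Chosen from 3 arrays, with the lone array of a genotype set against both arrays of the other, the set held 257 transcripts without the wild-type array of pair 1. It held 320 without the mutant array of pair 2, and 149 of the 160 were in each of these sets. Without the wild-type array of pair 2 it held 165 and without the mutant array of pair 1 it held 212, and 121 of the 160 were in each.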

How the data were processed

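The authors deposited, for each array, a linear signal intensity of every ATH1 probe set; the submitters' processing notes name MAS5 as the method. Its version and scaling target are not given in the sources used here, and no detection calls were used. Of 22810 probe sets, 64 Affymetrix controls were left out. Intensities were analysed as log2(signal + 3), so differences of dim probe sets are understated, and quantile normalised with limma 3.58.1 in R 4.3.3. Groups were taken from the genotype labels. The titles pair the arrays but give no numbers. They call the second array of each genotype a biological rep and say no more of separate cultures, so a p value reflects only how far these arrays spread, which may be technical. Lists were tested with limma (lmFit, two-sided, eBayes with trend, Benjamini-Hochberg over all 14047 tested probe sets, threshold 0.05). The fit and the member rule were also run on simulated data. The simulated arrays varied independently with no difference between pairs, whereas the control levels here differed by pair. That run therefore does not show how either performs on these arrays.

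Gene names come from the platform annotation, updated through RefSeq (TAIR10.1), and all 82 genes matched. Lengths and coordinates were not used. The members, roles, lists and relatives were chosen with earlier results of these data known. Values on all arrays are given for EIN3, for the 15 genes with the largest difference in the pair nearer 0, for the 3 largest per role group, and, chosen after their values were seen, for the other genes with a name and for AT5G17700, AT1G67910 and AT2G47780. The alternatives were other pseudocounts, scalings, filters, thresholds and pairings, other variance models and leaving out arrays. The relatives of 2 lowered genes are not reported here. The planned comparison of promoter sequences was not run, and no sequence was used here. Figures were drawn with matplotlib 3.10.9.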

Additional observations from a re-analysis of the deposited data

How the results depend on the processing

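The 160 transcripts, and the 82 of them with 1 gene, became 88 and 47 under the deposited scaling, 412 and 254 with no filter, and 70 and 35 at a difference of -1.5 or below. With 1 array left out they ran from 165 to 320, and from 90 to 167. Other pseudocounts, median centring, the stricter filter, crossed pairs, all 4 differences and, chosen after seeing the data, keeping the controls during normalisation or leaving out ties at the filter stayed within 1.5 times of both numbers (110 to 165, and 55 to 85). The mean difference of each of the 82 genes stayed negative under the 9 alternatives that give one; 534 of these 738 values moved by less than the spread between pairs and 204 by more. For EIN3 it ran from -3.48 to -2.71, for ARL from -3.62 to -2.84, for AT5G19250 from -7.42 to -5.23 and for ATSPS4F from -2.14 to -0.65. Of the 8 tested list genes outside the set, 1 passed limma; 0 passed with no filter, 0 with the stricter filter and 3 with the replicate block by title pairs, and from 0 to 2 with 1 array left out. The cause of these changes was not tested. The titles pair the arrays without numbers, so the block stands as an alternative only. The planned shares of promoter motifs were not run. In the 48 transcripts below the 40th percentile on both mutant arrays, the signal over background limits the size of the difference.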
